A study of Homo sapiens with 30 samples.

Results

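The lowest androgen dose given to LNCaP cells in this series was 0.03 nM of R1881, and its effect on messenger RNA was measured against vehicle. The members are 6 of the 30 samples, chosen by their labels: 3 LNCaP libraries at 0.03 nM R1881 and 3 LNCaP libraries with vehicle, numbered 2, 3 and 4 in each group. LNCaP is an androgen-responsive human prostate cancer cell line, and R1881 (methyltrienolone) is a synthetic ligand of the androgen receptor that cells metabolise slowly. Both groups were seeded at 130000 cells per well in medium whose 8% serum had been stripped of steroids with charcoal and dextran, held for 48 h, and then given R1881 or vehicle for 24 h. The labels do not say whether the numbered libraries came from separate cultures, so the p-values measure the spread between these libraries, which may be technical. The series examines how the response to androgen depends on dose, and the LNCaP doses of 0.06, 0.1 and 10 nM, 3 libraries each, are set beside 0.03 nM where they place a value.

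The androgen receptor is a hormone-activated transcription factor of the nucleus. Bound to hormone, it attaches to DNA at androgen response elements, inverted repeats of a short sequence, and raises secreted proteases and other luminal genes of the prostate while lowering another set. In prostate cancer cells androgen is also known to act on proliferation, with low doses known to favour it and high doses to restrain it.

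Total counts ran from 35102621 to 47166747 at 0.03 nM and from 40396721 to 43963087 with vehicle. Genes encoded by mitochondrial DNA took 10.2% to 10.7% of the counts of the libraries numbered 3, of which each group held 1, and 6.14% to 7.68% of those of the libraries numbered 2 and 4. Levels below are CPM, counts scaled to the same total in each library, on library sizes adjusted by TMM, changes are log2 of 0.03 nM over vehicle ± SE with n = 3 libraries per group, and a gene is called at an adjusted p under 0.05 by edgeR's quasi-likelihood test over 18403 genes. That test used no replicate block unless the block is named, although same-numbered libraries correlated weakly, as given under the processing. A gene described as not called can therefore be called with the block. The labelled cell type was checked on its markers. The summed level of 18 prostate luminal markers was 7340 to 7910 CPM at 0.03 nM and 7620 to 8010 CPM with vehicle, against 79.3 to 91.0 and 80.6 to 88.1 CPM for the 11 basal markers in the table, of which KRT15 had no count.

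At 0.03 nM, 1588 genes were called, 8.63% of those tested: 1007 were higher (5.47%) and 581 lower (3.16%) than with vehicle. Most changes were small. Of the genes called higher, 117 were at least 2-fold higher, 163 were 1.5-fold to 2-fold higher and 727 less, with a median log2 change of 0.38 (1.3-fold). Of the genes called lower, 35 were at least 2-fold lower, 88 were 1.5-fold to 2-fold lower and 458 less, with a median log2 change of -0.34 (1.27-fold). The median log2 change of all tested genes was 0.0023. The shares of 5.47% and 3.16% are those to set beside the counts of each list below that come from this fit. A fit that took the replicate number as a block called 3195 of the same 18403 genes, 1828 higher and 1367 lower, among them all 1588. List counts with the block belong beside these larger totals, not beside 5.47% and 3.16%. Fits without 1 library called 979 to 1309 genes, and the fit without the libraries numbered 3 called 1790. Without vehicle replicate 4 the total was 979, with 298 lower, and without 0.03 nM replicate 3 or 0.03 nM replicate 4 the genes called lower numbered 377 and 342.

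**Figure D1:**
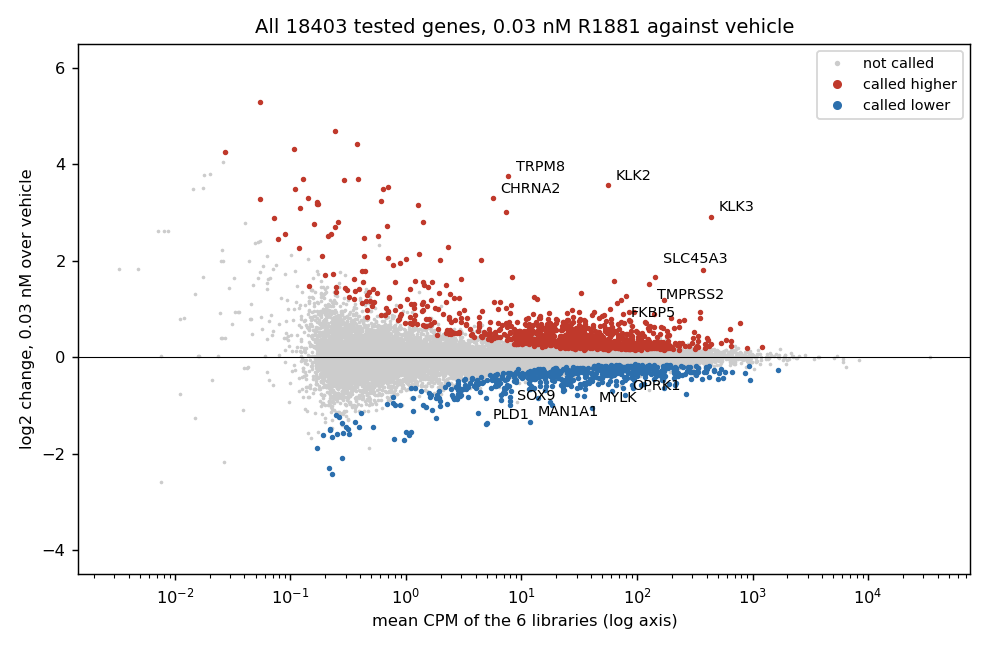
Change at 0.03 nM R1881 over vehicle (log2, vertical) against the mean CPM of the 6 libraries (log axis, horizontal) for the 18403 tested genes, with 1007 called higher in red, 581 called lower in blue and the rest in grey. TRPM8, KLK2, CHRNA2 and KLK3 stand at 3.76, 3.57, 3.30 and 2.92, and PLD1 stands at -1.39.

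The largest rises among genes above 5 CPM were in prostate secretory proteases, membrane channels and transporters. KLK3, the gene of prostate-specific antigen, stood at 673, 885 and 767 CPM in the 0.03 nM libraries numbered 2, 3 and 4 and at 93.7, 107 and 107 CPM in the vehicle libraries. KLK2, a neighbouring kallikrein protease, stood at 89.1, 117 and 106 CPM at 0.03 nM and at 7.65, 9.44 and 9.23 CPM with vehicle. In both genes every library with hormone was several-fold above every library without it, the changes being 2.92 ± 0.09 and 3.57 ± 0.096. KLK2 and KLK3 are close paralogs, so how their shared reads were split is uncertain. KLK4, a more distantly related kallikrein, rose 3.0-fold to 83.4, 121 and 81.5 CPM at 0.03 nM, against 28.1, 39.7 and 27.5 CPM with vehicle (log2 1.58 ± 0.17, edgeR adjusted p = 1.46e-05).

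The start regions of KLK3 and KLK2 are shown because they carry the best known androgen response element of this gene family. The sequences are RefSeq's for GRCh38.p14, from 250 bases before to 50 bases after the gene start, 5′ to 3′ on the plus strand. KLK3 covers chr19:50854665-50854964 and KLK2 covers chr19:50873189-50873488, and capitals mark the best match to the element, which begins 170 bases before the start of KLK3 and 176 bases before that of KLK2. For KLK2 the outermost start in GENCODE 29, 50861568, lies upstream of RefSeq's, so its window is inside the GENCODE gene:
KLK3: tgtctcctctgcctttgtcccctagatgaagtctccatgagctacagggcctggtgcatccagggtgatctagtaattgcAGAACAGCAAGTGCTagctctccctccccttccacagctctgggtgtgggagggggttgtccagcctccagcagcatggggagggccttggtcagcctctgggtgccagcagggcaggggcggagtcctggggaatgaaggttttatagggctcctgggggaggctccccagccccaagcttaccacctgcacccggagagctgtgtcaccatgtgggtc
KLK2: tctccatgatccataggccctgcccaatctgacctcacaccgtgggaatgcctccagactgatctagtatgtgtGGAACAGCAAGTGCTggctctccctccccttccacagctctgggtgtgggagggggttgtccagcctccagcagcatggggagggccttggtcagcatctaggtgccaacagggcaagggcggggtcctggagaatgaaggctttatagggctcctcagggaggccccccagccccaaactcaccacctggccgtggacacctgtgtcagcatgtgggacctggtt
The element was searched as AGAACA and TGTTCT with 3 free bases between them, which reads the same on both strands. KLK3 differs from it at 2 of the 12 fixed letters and KLK2 at 3. With at most 2 mismatches it was found in 4 of 66 promoters of genes called at least 2-fold higher (6.06%), in 6 of 764 promoters of all genes called higher (0.785%), and in 71 of 11984 promoters of tested genes (0.592%). The 6-letter arm AGAACA alone, on either strand and also where it lies inside the full element, was in 14 of 66 (21.2%), 80 of 764 (10.5%) and 1094 of 11984 (9.13%). Of genes called lower, the element with at most 2 mismatches was in 2 of 426 promoters (0.469%) and the arm in 48 (11.3%), and of those at least 2-fold lower they were in 1 of 24 (4.17%) and 4 (16.7%). These shares describe a window of 300 bases and say nothing of enhancers outside it.

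TRPM8, a cold-sensing cation channel of the prostate epithelium (ENSG00000144481.17, chromosome 2, 233917398 to 234019522, plus strand, GENCODE 29 on GRCh38), had the largest rise of these genes. It stood at 10.8, 18.7 and 13.5 CPM at 0.03 nM, against 0.704, 1.29 and 1.15 CPM with vehicle, a 13.5-fold rise (log2 3.76 ± 0.24, edgeR adjusted p = 1.79e-08). CHRNA2, a subunit of nicotinic acetylcholine receptors, stood at 9.96, 11.6 and 9.13 CPM at 0.03 nM, against 1.1, 0.955 and 1.04 CPM with vehicle, a 9.84-fold rise. ST6GALNAC1, which adds sialic acid to the O-glycans of mucins and makes the sialyl-Tn antigen, stood at 13, 14.7 and 11.9 CPM at 0.03 nM, against 1.38, 1.98 and 1.5 CPM with vehicle, an 8.07-fold rise. In all of these the groups were far from overlapping, and the choice of genes required that they did not overlap. GRIN3A, a subunit of NMDA-type glutamate receptors, rose 3.18-fold (adjusted p = 0.000133), and SLC45A3, the sugar transporter family member also called prostein, rose 3.15-fold (adjusted p = 4.18e-10). TMPRSS2, a transmembrane protease, stood at 154, 257 and 158 CPM at 0.03 nM, against 60, 81.8 and 57.5 CPM with vehicle. ELOVL7, an elongase of long-chain fatty acids, rose 2.51-fold (adjusted p = 8.97e-07). ZNF812P, a zinc finger pseudogene, rose 4.07-fold to 6.75, 7.81 and 7.12 CPM, against 1.57, 1.64 and 2.1 CPM with vehicle.

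**Figure D2:**
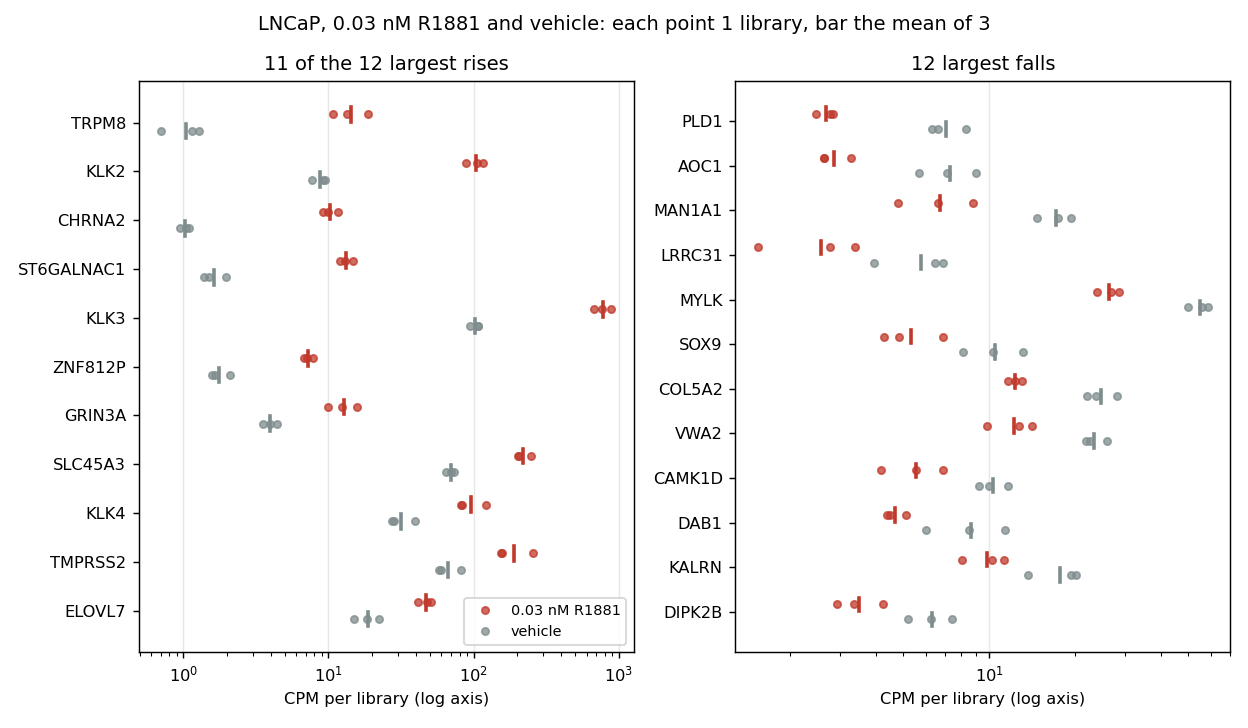
CPM per library (log axis) of 11 of the 12 genes with the largest rises (left) and the 12 with the largest falls (right) at 0.03 nM R1881, red, above vehicle, grey; each point is 1 library and each bar the mean of 3. KLK3 lies between 673 and 885 CPM at 0.03 nM and at or under 107 CPM with vehicle, and the groups do not overlap in any gene shown, which the choice of genes required.

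Taken as a list of 52 known androgen-induced genes, all of them tested, 37 were called higher at 0.03 nM (71.2%) and none lower. Of all tested genes 5.47% were called higher, and the median log2 change of the list was 0.75. The lists were chosen with earlier results of these data known, so their shares are descriptions. At 0.06, 0.1 and 10 nM the genes called higher numbered 48, 51 and 51, where 16.9%, 21.5% and 29.3% of all tested genes were called higher. The members differed widely in the share of their 10 nM log2 change that was present at 0.03 nM. For a rise, this share is larger than the share of the rise in CPM. The log2 change at 0.03 nM was 82.9% of that at 10 nM for TRPM8, 62.6% for KLK4, 55.8% for KLK3 and 54.1% for KLK2. The 2 changes share the vehicle libraries. The share was 34.9% for TMPRSS2, 13.2% for FKBP5 and 9.48% for ACSL3, and 5.87% for ODC1, which is not in the list. FKBP5, a co-chaperone of steroid receptors, stood at 95.9, 101 and 89.1 CPM at 0.03 nM, against 60.6, 55.9 and 57.7 CPM with vehicle, and averaged 2452 ± 84.6 CPM (SD) at 10 nM.

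Several classical targets were not called at 0.03 nM although they were among the strongly raised genes at 10 nM. NDRG1, a stress-responsive protein of differentiated epithelium, stood at 43, 50.9 and 39.1 CPM at 0.03 nM, against 36.8, 37.6 and 36.8 CPM with vehicle (log2 0.26 ± 0.11, adjusted p = 0.167), and changed by 5.37 ± 0.12 at 10 nM. LIFR, the receptor of leukaemia inhibitory factor, stood at 33.7, 33.5 and 33.9 CPM at 0.03 nM, against 34.1, 36 and 40 CPM with vehicle, and changed by 3.51 ± 0.08 at 10 nM. The log2 changes at 0.03 and 10 nM were -0.33 and 3.69 for the kinase SGK1, 0.25 and 4.52 for the transcription factor MAF, and 0.16 and 2.78 for the spermine synthase SMS. MAF and SMS each had an adjusted p of 0.0483 with the replicate block, against 0.235 and 0.279 without it. ODC1, the first enzyme of polyamine synthesis, stood at 384, 414 and 399 CPM at 0.03 nM, against 336, 351 and 386 CPM with vehicle, and its groups overlapped (adjusted p = 0.313). STEAP4, a metalloreductase, had 7 counts in the 3 libraries at 0.03 nM, none with vehicle and 18583 at 10 nM, so its 0.03 nM level lies at the limit of detection. STEAP2 was the only list member not called at 10 nM.

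Other members rose too. PMEPA1, a membrane protein that dampens TGF-beta signalling, stood at 105, 138 and 94.9 CPM at 0.03 nM, against 47.8, 46.9 and 44.8 CPM with vehicle, and GREB1, a hormone-induced coregulator, rose 1.92-fold. The folds of low-level members rest on few reads. SLC38A4, an amino acid transporter, stood at 0.566, 0.858 and 0.748 CPM at 0.03 nM, against 0.0235, 0.0444 and 0.0231 CPM with vehicle (log2 4.43 ± 0.49, adjusted p = 1.5e-05). TTN and CCDC141 rose by 3.70 ± 0.77 and 3.24 ± 0.45, and because these neighbours overlap on the same strand their reads cannot be fully separated. F5, coagulation factor V, rose 4.06-fold and HPGD, which inactivates prostaglandins, rose 4.08-fold, both to under 5 CPM.

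**Figure D3:**
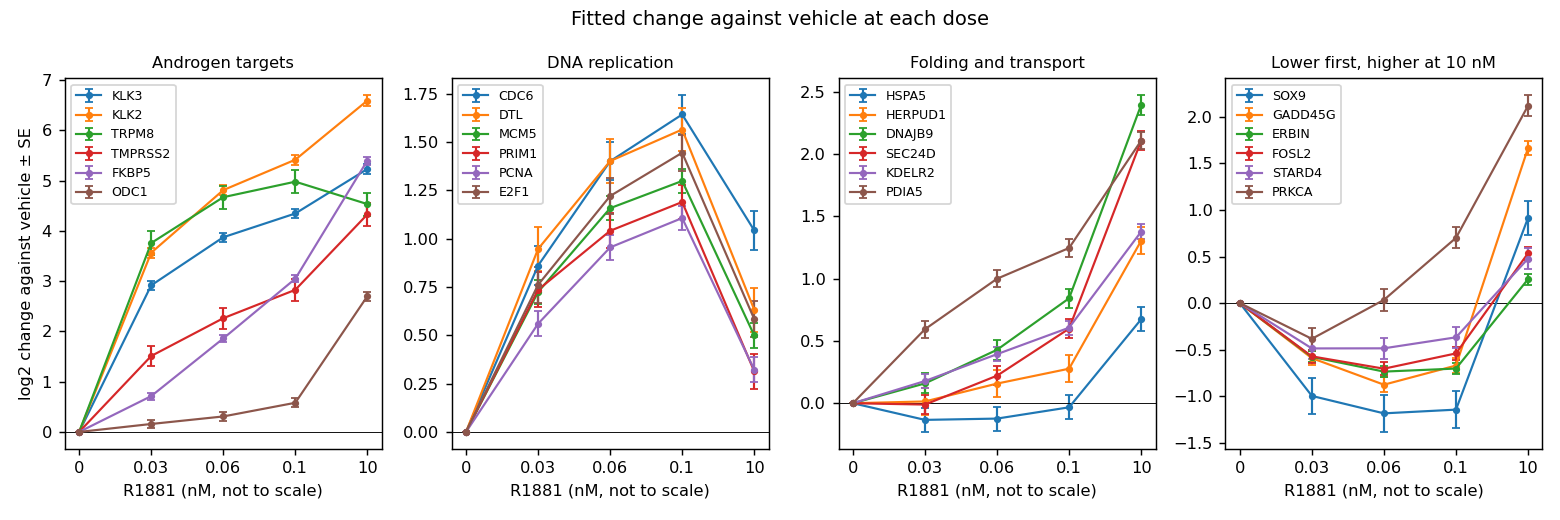
Fitted log2 change against vehicle ± SE at 0, 0.03, 0.06, 0.1 and 10 nM R1881 (horizontal axis not to scale) for androgen targets, DNA replication genes, folding and transport genes, and genes lower at 0.03 nM but higher at 10 nM. KLK3 and TRPM8 reach 2.92 and 3.76 at 0.03 nM, FKBP5 0.71 and ODC1 0.16, while CDC6 stands at 0.86 at 0.03 nM and 1.04 at 10 nM.

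The largest falls were smaller than the largest rises. PLD1, phospholipase D (ENSG00000075651.16, chromosome 3, 171600405 to 171810950, minus strand), stood at 2.83, 2.46 and 2.77 CPM at 0.03 nM, against 6.31, 6.59 and 8.33 CPM with vehicle. MYLK, the myosin light chain kinase, stood at 28.6, 23.8 and 26.7 CPM at 0.03 nM, against 55.7, 50 and 58.6 CPM with vehicle (log2 -1.05 ± 0.076, edgeR adjusted p = 1.46e-07). MAN1A1, a Golgi mannosidase that trims N-glycans, stood at 8.78, 4.81 and 6.61 CPM at 0.03 nM, against 17.4, 14.7 and 19.4 CPM with vehicle. In each the highest library with hormone lay below the lowest vehicle library, which the choice of genes required. COL5A2, a fibrillar collagen chain, stood at 11.7, 13.1 and 12.3 CPM at 0.03 nM, against 22.1, 28.1 and 23.8 CPM with vehicle (log2 -0.997 ± 0.125). The other falls of the 12 ranged in log2 change from -1.36 for AOC1, diamine oxidase, to -0.84 for DIPK2B. Between them lay LRRC31, SOX9, VWA2, CAMK1D (a calcium-dependent kinase), DAB1 (an adaptor of reelin signalling) and KALRN (a guanine nucleotide exchange factor).

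Of 33 tested genes known to be lowered by androgen, 15 were called lower and 3 higher, with a median log2 change of -0.28. Of all tested genes 3.16% were called lower and 5.47% higher. At 10 nM, 23 were called lower, where 28.3% of all tested genes were, and 7 higher. OPRK1, the kappa opioid receptor, stood at 57.2, 58.6 and 57.2 CPM at 0.03 nM, against 89.6, 102 and 106 CPM with vehicle (log2 -0.78 ± 0.11, adjusted p = 0.000229), which is 14.4% of its log2 change at 10 nM. SI, sucrase-isomaltase, fell by 0.79 ± 0.13 and AMIGO2, a cell adhesion protein, by 0.82 ± 0.12 on the log2 scale. The 3 members called higher were PTGER4, a prostaglandin E2 receptor (2.36-fold), PDE9A, a cyclic GMP phosphodiesterase (1.42-fold), and TFPI, an inhibitor of tissue factor (1.39-fold). All of these were also higher at 10 nM, with log2 changes of 4.60, 0.97 and 0.34. ACKR3, a scavenging chemokine receptor, fell to 122, 127 and 126 CPM at 0.03 nM, against 144, 148 and 149 CPM with vehicle, and averaged 18.3 ± 0.784 CPM at 10 nM. When 1 of the 6 libraries was left out, 10 to 13 members were called lower.

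Enzymes that conjugate androgens for excretion differed between libraries of the same group. UGT2B15, a glucuronosyltransferase of dihydrotestosterone and its metabolites, stood at 149, 34.5 and 106 CPM at 0.03 nM, against 234, 54.6 and 177 CPM with vehicle in the libraries numbered 2, 3 and 4. The libraries numbered 3 were the lowest in both groups, the group ranges overlapped, and within each number the library with hormone was the lower. The adjusted p was 0.569 without a block and 8.79e-11 with the replicate block (log2 -0.68 in both), and 0.0163 without the libraries numbered 3. UGT2B17, a near-identical paralog with which reads may be shared, stood at 193, 63.7 and 158 CPM at 0.03 nM, against 210, 79.8 and 179 CPM with vehicle, with an adjusted p of 0.882 and, with the block, 0.0338. Over the 21 tested genes of androgen synthesis and clearance, 1 was called, DHRS7 (a short-chain dehydrogenase, 1.23-fold higher). This is 4.76% of them, where 5.47% of all tested genes were called higher. Without vehicle replicate 2 there were 2, and with the block 5 were called higher and 2 lower.

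FOXA1, the pioneer factor that opens chromatin, stood at 484, 454 and 452 CPM at 0.03 nM, against 513, 494 and 542 CPM with vehicle, with an adjusted p of 0.0612 and, with the block, 0.0155. Without 0.03 nM replicate 2 or vehicle replicate 3 its adjusted p was 0.0442 and 0.0445. HOXB13, a homeobox factor of the prostate, fell to 494, 485 and 476 CPM at 0.03 nM, against 584, 576 and 558 CPM with vehicle (log2 -0.24 ± 0.049, adjusted p = 0.00407). Of 28 tested genes of the receptor axis 2 were called higher, FKBP5 among them, and 2 lower, HOXB13 and the coactivator NCOA3. Each is 7.14% of the list, near the 5.47% and 3.16% of all tested genes called higher and lower. With the replicate block 6 were called higher and 7 lower, and without 0.03 nM replicate 2 there were 4 called lower.

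Most genes of DNA replication rose at 0.03 nM, by at most 1.93-fold (DTL). Before S phase the helicase MCM2 to MCM7 is loaded on origins by the origin recognition complex, CDC6 and CDT1, and it is later activated by CDC45 and the GINS complex. Of the 63 tested replication genes 51 were called higher and none lower, with a median log2 change of 0.47, and 61 had a positive change. With the replicate block 56 were called higher and 1, ORC4, lower. The counts were 13 of 16 for origin licensing, 16 of 18 for origin firing and 22 of 29 for polymerases and fork factors, and 40 to 49 of the 63 were called when 1 of the 6 libraries was left out. In these bulk samples, more cells in S phase and more messenger RNA per cell cannot be told apart.

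CDC6, the loader of the helicase (ENSG00000094804.12, chromosome 17, 40287633 to 40304657, plus strand), stood at 64.3, 63.1 and 66.9 CPM at 0.03 nM, against 38.3, 30.6 and 38.2 CPM with vehicle (log2 0.86 ± 0.099, adjusted p = 2.33e-05). DTL, which directs the destruction of CDT1 during S phase, stood at 41.8, 38.4 and 43.4 CPM at 0.03 nM, against 23.1, 17.3 and 23.8 CPM with vehicle (log2 0.95 ± 0.11). MCM5, a helicase subunit, stood at 87.2, 94.9 and 90 CPM at 0.03 nM, against 58.7, 51.2 and 54.7 CPM with vehicle (log2 0.72 ± 0.063). The vehicle library numbered 3 was the lowest of its group in all of these, and the libraries with hormone lay above every vehicle library. MCM10, CDC45 and GINS2, which convert the loaded helicase to the active one, rose 1.7-fold, 1.67-fold and 1.62-fold. At the fork, PRIM1 (a primase subunit) rose 1.67-fold, FEN1 (which trims Okazaki fragments) 1.61-fold and PCNA (the sliding clamp) 1.47-fold. ORC2, ORC3, ORC4, RPA1 and POLD2 were among the 12 members not called, of which RPA1 (log2 0.14) and ORC4 (log2 -0.16) had an adjusted p of 0.0364 and 0.0495 with the replicate block. Without the libraries numbered 3 in every group, 50 of the 63 were called higher.

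The start regions of CDC6 and DTL are shown as those of 2 replication genes that rose at this dose, again from RefSeq on GRCh38.p14 and on the plus strand. CDC6 covers chr17:40287629-40287928 and DTL covers chr1:212035498-212035797, and RefSeq's starts lie downstream of the outermost starts in GENCODE 29 (40287633 for CDC6 and 212035553 for DTL), so that most of each window is inside the GENCODE gene. Capitals mark matches to E2F sites, the elements through which E2F factors act on S phase genes:
CDC6: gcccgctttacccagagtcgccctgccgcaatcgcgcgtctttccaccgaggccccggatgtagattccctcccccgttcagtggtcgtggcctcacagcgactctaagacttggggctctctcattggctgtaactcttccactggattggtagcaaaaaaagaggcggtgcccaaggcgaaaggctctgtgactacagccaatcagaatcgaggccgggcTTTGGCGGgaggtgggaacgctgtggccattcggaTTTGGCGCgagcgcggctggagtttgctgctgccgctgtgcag
DTL: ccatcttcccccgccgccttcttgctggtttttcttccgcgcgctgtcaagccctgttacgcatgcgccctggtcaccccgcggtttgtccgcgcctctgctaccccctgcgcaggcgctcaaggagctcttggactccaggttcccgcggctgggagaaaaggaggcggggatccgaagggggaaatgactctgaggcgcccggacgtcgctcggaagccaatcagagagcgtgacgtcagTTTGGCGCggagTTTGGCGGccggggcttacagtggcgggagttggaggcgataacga
E2F sites were searched on both strands as TTTGGCGC, TTTCCCGC, TTTCGCGC, TTTGCCGC and TTTGGCGG. At least 1 was found in 27 of 53 promoters of the replication genes (50.9%), in 108 of 764 promoters of genes called higher (14.1%), in 22 of 426 promoters of genes called lower (5.16%) and in 742 of 11984 promoters of tested genes (6.19%).

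Over the doses the replication genes followed another order than the androgen targets. Their median log2 change was 0.47, 0.85, 1.01 and 0.34 at 0.03, 0.06, 0.1 and 10 nM, and for the androgen-induced list it was 0.75, 1.44, 2.0 and 3.51. At 10 nM 46 of the 63 were called higher and 1 lower. Tested directly, 10 nM against 0.03 nM, 5 of the 63 were called higher and 25 lower, where 25.3% and 26.5% of all tested genes were. The genes whose log2 change at 0.03 nM was the largest share of that at 10 nM included, among rises of at least 0.5 (log2) that passed the test at both doses, with a mean of at least 5 CPM and no overlap between groups, UNG, which removes uracil from DNA, DSCC1 and HELLS, which act in sister chromatid cohesion and chromatin remodelling, PRIM1 and THBS1. UNG stood at 77.5, 79.9 and 78.4 CPM at 0.03 nM, against 54.7, 52.1 and 53.9 CPM with vehicle (log2 0.55 ± 0.055), and its log2 change at 10 nM was 0.16 ± 0.055. PRIM1 stood at 17.2, 16.1 and 17 CPM at 0.03 nM, against 11.1, 9.19 and 9.97 CPM with vehicle (log2 0.74 ± 0.091), and its log2 change at 10 nM was 0.31 ± 0.092. The fitted change of both genes was smaller at 10 nM than at 0.03 nM. THBS1, the matrix protein thrombospondin, rose 1.95-fold at 0.03 nM.

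**Figure D4:**
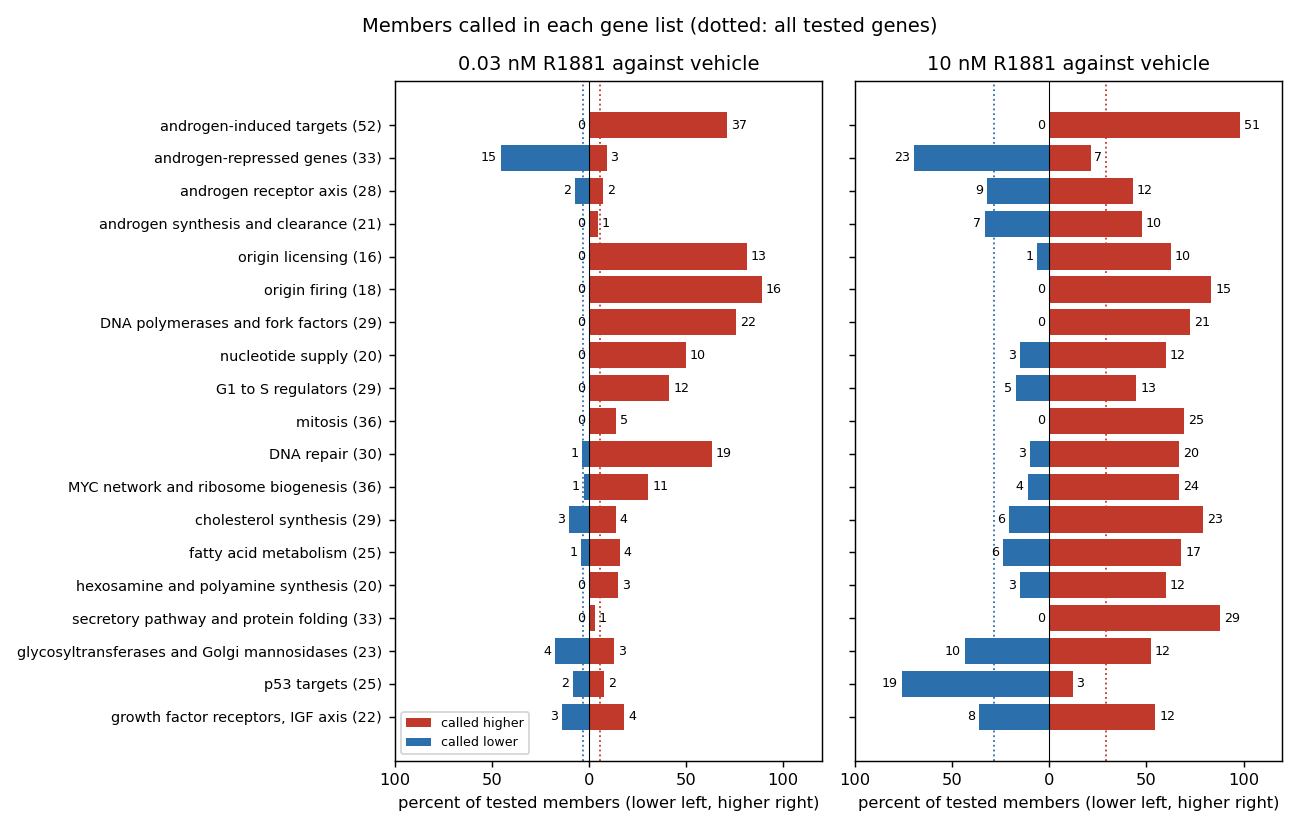
Percent of the tested members of each list (number in brackets) called lower (blue, to the left) and higher (red, to the right) at 0.03 nM (left panel) and 10 nM (right panel) against vehicle, with the number called beside each bar and dotted lines at the share of all tested genes. Replication lists have 13 of 16, 16 of 18 and 22 of 29 called higher at 0.03 nM, while the secretory pathway list has 1 of 33 at 0.03 nM and 29 of 33 at 10 nM.

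Of 29 tested regulators of S phase entry 12 were called higher and none lower at 0.03 nM, and with the replicate block 16 were higher and 2 lower. E2F1, the activating E2F factor, stood at 67.4, 67.2 and 68.8 CPM at 0.03 nM, against 44.7, 33.7 and 41.6 CPM with vehicle (log2 0.76 ± 0.093, adjusted p = 4.63e-05). CDC25A, a phosphatase that activates cyclin-dependent kinases, rose 1.59-fold and CDK2, the S phase kinase, 1.5-fold. CCND1, cyclin D1, stood at 422, 451 and 376 CPM at 0.03 nM and 405, 415 and 393 CPM with vehicle (adjusted p = 0.81). The inhibitor CDKN1A stood at 141, 120 and 115.9 CPM at 0.03 nM, against 162, 144 and 137 CPM with vehicle, with an adjusted p of 0.0985 and, with the replicate block, 0.000439. Without 0.03 nM replicate 2 its adjusted p was 0.0268.

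Of 20 tested genes of nucleotide supply 10 were called higher, led by RRM2, a subunit of ribonucleotide reductase (1.64-fold), and 5 to 9 were when 1 library was left out, with 5 without 0.03 nM replicate 2, 0.03 nM replicate 4 or vehicle replicate 3. Of 30 DNA repair genes 19 were called higher, among them RAD54L of homologous recombination (1.61-fold) and BRCA1 (1.54-fold). The number was 12 without vehicle replicate 3. PMS2, of mismatch repair, was the only one called lower, at 86.4, 77.4 and 74.6 CPM at 0.03 nM, against 113, 105 and 113 CPM with vehicle (log2 -0.47 ± 0.065), and it has pseudogene copies that may share its reads.

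Of 36 tested mitotic genes 5 were called higher at this dose (MAD2L1, SPC25, AURKB, ANLN and NDC80) and none lower. The share called higher was 13.9%, where 5.47% of all tested genes were, the median log2 change was 0.27, and 35 had a positive change. MKI67, the proliferation antigen Ki-67, stood at 212, 183 and 207 CPM at 0.03 nM, against 167, 130 and 184 CPM with vehicle, so that the groups overlapped (adjusted p = 0.185, and 0.000182 with the replicate block). CCNB1, cyclin B1, stood at 114.9, 88.5 and 108 CPM at 0.03 nM and 115.0, 87 and 110 CPM with vehicle. AURKB, ANLN and NDC80 lost their calls without any of 2, 3 and 5 of the 6 libraries. The libraries numbered 3 were the lowest of their group in MKI67 and CCNB1, and they also had the highest mitochondrial share, whose part in the result was not tested. With the replicate block 22 mitotic genes were called, without the libraries numbered 3 there were 18, and there were 3 without 0.03 nM replicate 2 and 2 without 0.03 nM replicate 4 or vehicle replicate 3. The number was 27, 32 and 25 at 0.06, 0.1 and 10 nM, doses at which 16.9%, 21.5% and 29.3% of all tested genes were called higher.

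**Figure D5:**
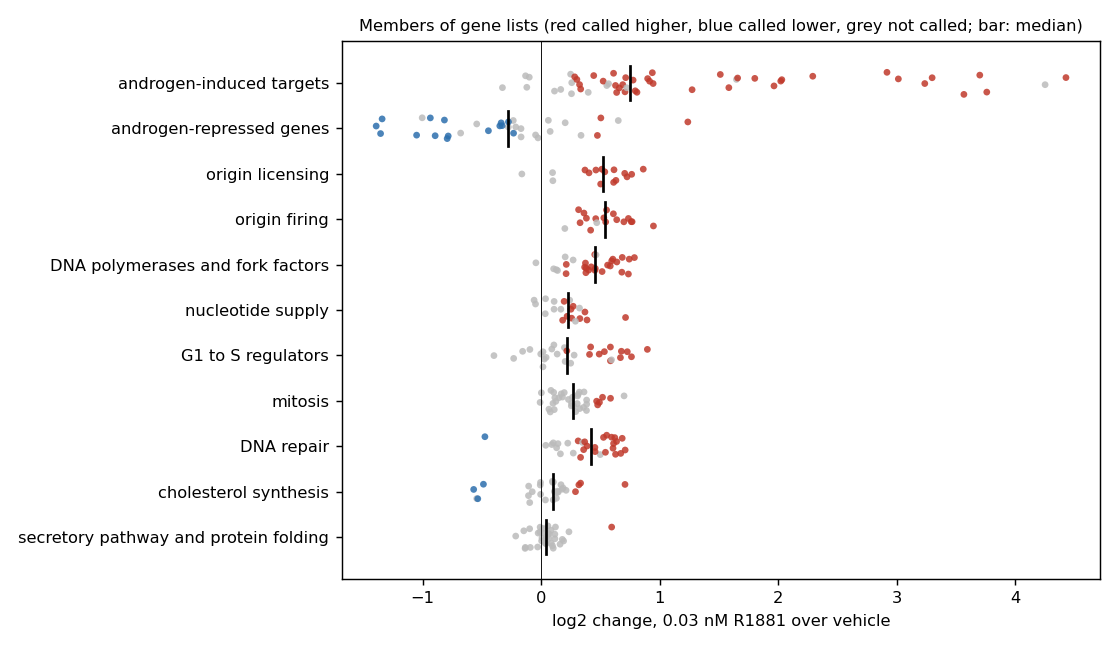
Fitted log2 change at 0.03 nM R1881 over vehicle of every tested member of 11 lists, each point 1 gene (red called higher, blue called lower, grey not called) and each bar the list's median. The bar stands at 0.75 for androgen-induced targets, 0.54 for origin firing, 0.27 for mitosis and 0.044 for the secretory pathway, and the points of the last list lie around zero except PDIA5.

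Of the MYC network and ribosome biogenesis genes, 11 of 36 were called higher (30.6%, where 5.47% of all tested genes were) and 1 lower, MXI1, a partner of MAX that opposes MYC (log2 -0.19, adjusted p = 0.0429). MXI1 lost its call without any of 5 of the 6 libraries, with adjusted p of up to 0.166. With the replicate block 14 genes of the list were called higher and 1 lower. MYC, the growth-promoting transcription factor, stood at 186, 188 and 165 CPM at 0.03 nM, against 153, 152 and 151 CPM with vehicle (log2 0.24 ± 0.058, adjusted p = 0.0135), and its change at 10 nM was -0.47 ± 0.058. Its adjusted p was 0.0564, 0.065 and 0.0523 without 0.03 nM replicate 2, 0.03 nM replicate 3 and vehicle replicate 4. The nucleolar factor NOP56 rose 1.22-fold. The number called higher in the list was 6, 4, 7 and 3 without 0.03 nM replicate 2, 0.03 nM replicate 3, vehicle replicate 3 and vehicle replicate 4.

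Most secretory and lipid genes that were called higher at 10 nM were not called at 0.03 nM. The same held over all tested genes, with 5399 called higher at 10 nM and 1588 called at 0.03 nM. Of 33 tested genes of protein folding and vesicle transport, 1 was called at 0.03 nM, PDIA5, a protein disulfide isomerase, which rose to 29.8, 33.5 and 27.9 CPM, against 21.3, 20.4 and 18.5 CPM with vehicle (log2 0.59 ± 0.07, adjusted p = 3e-05). The share of the list called higher was 3.03%, against 5.47% of all tested genes, and its median log2 change was 0.044. At 0.06, 0.1 and 10 nM the genes called higher numbered 12, 20 and 29. At these doses 16.9%, 21.5% and 29.3% of all tested genes were called higher. HERPUD1, of the degradation of misfolded proteins, stood at 85.2, 106 and 85.7 CPM at 0.03 nM and 82.2, 108 and 83.6 CPM with vehicle, and changed by 1.30 ± 0.11 at 10 nM. The chaperone HSPA5 stood at 735, 608 and 630 CPM at 0.03 nM and 777, 617 and 771 CPM with vehicle. Both genes overlapped between groups. Without 0.03 nM replicate 2 there were 2 members called higher, and with the replicate block 3 were called higher and 2 lower.

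In cholesterol metabolism 4 of 29 tested genes were called higher and 3 lower at 0.03 nM. The share called higher was 13.8%, where 5.47% of all tested genes were called higher and 3.16% lower. EBP, a sterol isomerase and 1 of those called higher, lost its call without any of 4 of the 6 libraries. The exporter ABCG1 fell to 33, 25.3 and 28 CPM at 0.03 nM, against 49, 38.2 and 41.1 CPM with vehicle, INSIG2, which holds the SREBP complex in the endoplasmic reticulum, fell by 0.54 ± 0.064 on the log2 scale, and STARD4 also fell. The genes called higher numbered 2 without 0.03 nM replicate 3, vehicle replicate 3 or vehicle replicate 4, and with the replicate block 10 were called higher and 4 lower. At 10 nM 23 were called higher, where 29.3% of all tested genes were.

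Of 25 fatty acid genes 4 were called higher, ELOVL7, the elongase ELOVL5 (1.75-fold), ACACA, which makes malonyl-CoA (1.26-fold), and the acyl-CoA synthetase ACSL3 (1.26-fold), and 1 lower, ACSL4. The share called higher was 16.0%, where 5.47% of all tested genes were called higher and 3.16% lower. ACSL4 lost its call without any of 4 of the 6 libraries, and with the replicate block 6 were called higher and 3 lower. Among 20 tested genes that make hexosamines and polyamines, the 3 called higher were UAP1, which makes UDP-GlcNAc (1.54-fold), GNPNAT1 and SAT1. With the replicate block these numbered 8, and 1 was lower. The calls of GNPNAT1 and SAT1 were lost without any of 3 and of 4 of the 6 libraries, with adjusted p of at most 0.111 and 0.1.

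Some genes moved in opposite directions at 0.03 and 10 nM, each called in both comparisons, which share the vehicle libraries. SOX9, a transcription factor of progenitor cells, stood at 4.27, 6.87 and 4.82 CPM at 0.03 nM, against 8.09, 13.1 and 10.3 CPM with vehicle (log2 -0.998 ± 0.19), and changed by 0.92 ± 0.18 at 10 nM. GADD45G, a growth arrest and DNA damage protein, stood at 11, 12 and 11.7 CPM at 0.03 nM, against 16.5, 19.6 and 16.1 CPM with vehicle (log2 -0.59 ± 0.078), and changed by 1.67 ± 0.075 at 10 nM. ERBIN, a scaffold of the ERBB2 receptor, stood at 181, 160 and 174 CPM at 0.03 nM, against 254, 238 and 277 CPM with vehicle (log2 -0.58 ± 0.06), and changed by 0.26 ± 0.059 at 10 nM. All of these had every 0.03 nM library under every vehicle library, which the choice of genes required. FOSL2, of the AP-1 family, and STARD4, a cholesterol transfer protein, changed by -0.57 and -0.49 at 0.03 nM and by 0.54 and 0.48 at 10 nM.

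Among rises that turned, SLC29A1, an equilibrative nucleoside transporter, stood at 32.4, 36.3 and 30.2 CPM at 0.03 nM, against 25.9, 23.3 and 22.3 CPM with vehicle (log2 0.46 ± 0.083, adjusted p = 0.00145), and changed by -0.63 ± 0.086 at 10 nM. The other rises of this kind chosen by the rule, EMC3-AS1, PVT1, DSEL, LINC00869 and NAV3, and the fall in PRKCA each lost the call without at least 1 library, with adjusted p of up to 0.152, 0.202, 0.208, 0.0751, 0.0876 and 0.185. EMC3-AS1 is an antisense gene, and whether the counting used strand is not given in the sources used here.

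The falls whose log2 change at 0.03 nM was the largest share of that at 10 nM, among genes that passed the test at both doses with a log2 change of at least 0.5 at 0.03 nM and no overlap between groups, ranged widely in that share. GALNT18, which starts O-glycans, stood at 25.2, 28.8 and 22.1 CPM at 0.03 nM, against 46.8, 49.9 and 36.6 CPM with vehicle (log2 -0.81 ± 0.12), 99.1% of its log2 change at 10 nM. SPECC1 changed by -0.57 ± 0.074 at 0.03 nM and -0.44 ± 0.074 at 10 nM. FBXO32, a muscle-type ubiquitin ligase, reached 88.5% of its log2 change at 10 nM, and ATP1B1, a sodium pump subunit, 66.1%. For ITPR1, an intracellular calcium channel, the share was 54.6%, and for NAPEPLD, which makes N-acylethanolamines, 50.5%.

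Among the genes not called at 0.03 nM and with at least 5 CPM on average at 10 nM or with vehicle, the 6 with the largest rises at 10 nM, MYBPC1 among them, stood at or below 1.02 CPM in each library at 0.03 nM. MYBPC1, a myosin-binding protein, stood at 0.637, 0.83 and 1.02 CPM at 0.03 nM and at 0.539, 0.466 and 0.692 CPM with vehicle, and averaged 32.7 ± 6.36 CPM at 10 nM. ORM1, ORM2, NBL1 and PDE3A stood at or below 0.2002 CPM in each library of both groups. CCN3, a matricellular protein, stood at 5.31, 6.38 and 7.0 CPM at 0.03 nM and 5.0, 7.04 and 6.99 CPM with vehicle, and its log2 change at 10 nM was -4.22 ± 0.29. The groups overlapped in MYBPC1 and CCN3. MATN2, a matrix protein, stood at 4.01, 6.55 and 4.19 CPM at 0.03 nM, against 7.08, 11.1 and 6.51 CPM with vehicle, with an adjusted p of 0.0783, 1.25e-05 with the replicate block and 0.0353 without 0.03 nM replicate 3. ABCA1 and PCDH11X likewise had adjusted p of 0.307 and 0.259, and 0.00475 and 0.000925 with the block.

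Markers of cell types other than luminal epithelium summed to less than the luminal markers. Neuroendocrine markers summed to 124 to 156 CPM at 0.03 nM and 119 to 167 CPM with vehicle, fibroblast markers to 452 to 565 and 359 to 458 CPM, and leukocyte and endothelial markers to at most 27.0 and 21.1 CPM, with CDH5 at 0. None of the 6, 8 and 2 tested members of these lists was called without the replicate block. With it FN1 (log2 0.32, adjusted p = 0.000686) and COL1A1 (log2 -0.29, adjusted p = 0.0026) of the fibroblast list and VWF (log2 0.34, adjusted p = 0.00162) of the endothelial genes passed the test. Without the libraries numbered 3 in every group, 1 fibroblast marker was called higher and 1 lower, and 1 leukocyte or endothelial marker higher. Of the 6 tested basal markers 1 was called, the keratin KRT14, at 0.165, 0.429 and 0.197 CPM at 0.03 nM, against 0.0235, 0.0444 and 0 CPM with vehicle, and its adjusted p was 0.0969, 0.0734 and 0.106 without 0.03 nM replicate 3, vehicle replicate 2 and vehicle replicate 4. Their part in the results was not tested. Of the 18 luminal markers 4 were called higher (22.2%) and 3 lower, where 5.47% and 3.16% of all tested genes were. KRT19, a keratin, stood at 1.23, 1.09 and 1.38 CPM at 0.03 nM, against 0.328, 0.333 and 0.323 CPM with vehicle. SLC39A6, a zinc transporter, rose 1.23-fold, and DPP4 lost its call without any of 3 of the 6 libraries. ACP3, prostatic acid phosphatase, fell to 152, 146 and 138 CPM at 0.03 nM, against 191, 182 and 209 CPM with vehicle. FOLH1, the prostate-specific membrane antigen, stood at 1481, 1600 and 1415 CPM at 0.03 nM, against 1783, 1858 and 1756 CPM with vehicle, and lost its call (adjusted p = 0.0473) without any of 5 of the 6 libraries. HOXB13 was the other marker called lower.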

How the data were processed

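RNA was sequenced from LNCaP cells with a stranded mRNA kit, per the labels' protocols. The submitters' processing notes name Trimmomatic 0.39, STAR 2.7.8a, DESeq2 1.36.0 and GRCh38 (hg38). The authors deposited raw counts per gene, a table of 37843 genes. The counter, its annotation and its strand setting are not given in the sources used here. Of the gene IDs, 37732 were matched to a reference list of gene names, 28456 of them with a symbol, and 36632 had a GENCODE 29 position.

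The deposited counts were fitted with edgeR 4.0.16 (limma 3.58.1, R 4.3.3): TMM factors, filterByExpr by group (18403 genes kept), 1 mean for each of 5 groups over all 15 LNCaP libraries, a two-sided quasi-likelihood test and Benjamini-Hochberg adjustment over all tested genes at 0.05. SE is the log2 change over the square root of F. On simulated counts with 200 changed genes (18067 genes tested), the 0.03 nM comparison recovered 60.7%, 79.1% and 94.3% of log2 changes of 0.5, 1 and 2, with 13 false among 169 calls. The simulated libraries had no deviation shared by replicate number, unlike the deposited ones, so these rates may not hold for the deposited counts. DESeq2 1.42.0 and 14 other alternatives were run.

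Members, gene lists and rules were chosen with earlier results of these data known. Genes are named as the 12 largest rises and falls above 5 CPM without overlap between groups, 6 rises and 6 falls each for the largest share of the 10 nM change (log2 change of at least 0.5 at 0.03 nM), opposite direction and late change, up to 4 called genes per list by p, 22 fixed genes, and members that complete a small count. Genes chosen for the largest share or for opposite direction also had to meet the 5 CPM floor and show no overlap between groups. Of the 135 named genes, 46 share bases with a gene of the same strand and 59 with a gene of the other strand.

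The labels number the libraries 2, 3 and 4 in each group. Deviations from the group means (log2 CPM, prior count 2) of same-numbered libraries at 0.03 nM and with vehicle correlated across genes at 0.155, 0.296 and 0.164, each over the limit of 0.1, against -0.225 to 0.0822 between different numbers, so the numbers were taken to pair the libraries. Deviations cancel within each group, so the values for same and for different numbers are not independent of each other. The main fit did not use the pairing by number, which the replicate block did. The main fit called 1588 genes and the block 3195. Calls and SE are from the main fit unless the block is named. The 15 columns of another table match no label and were not used. Some genes that these rules name are not reported here.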

Additional observations from a re-analysis of the deposited data

How the results depend on the processing

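All 1588 calls at 0.03 nM were kept with the replicate number as a block, which called 3195 genes, 1828 higher and 1367 lower, with 53 at least 2-fold lower; with the block and only the 6 libraries compared these were 2866, 1558, 1308 and 57. Without a block and with only the 6 libraries, 1008 genes were called, 630 higher and 378 lower. Leaving out 1 library called 979 to 1309 genes, 681 to 801 higher and 298 to 529 lower. DESeq2 called 1828 genes, of which 1530 were shared, and 11 at least 2-fold lower; the stricter low-count filter gave 16 at least 2-fold lower, against 35. In the androgen element search, 1 and 3 allowed mismatches gave 0.131% and 7.2% of promoters of genes called higher and 0.0% and 19.7% of those at least 2-fold higher, against 0.0334% and 5.93% of all tested. Of the 114 named genes called, 100 to 104 were called without any 1 library and 114 with the block, which changed the call of 8 of the 21 others; none of the 114 reversed under an alternative. Among genes not called, some changed sign: leaving out 1 library gave log2 changes of -0.17 to 0.078 for CCN3, -0.020 to 0.11 for CCND1, -0.51 to 0.043 for LRRTM3, -0.70 to 0.82 for ORM1 and -0.49 to 0.17 for UGT2B17, and leaving out the libraries numbered 3 gave 0.046 for CCN3 and -0.11 for PDE3A. Where the setting moves a count, the cause was not tested.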

Other observations

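Growth factor signalling genes included both rises and falls at 0.03 nM. Of 22 tested, 4 were called higher and 3 lower. Over all tested genes 5.47% were called higher and 3.16% lower, and the share higher in this list was 18.2%. IRS2, an adaptor of the insulin and IGF receptors, stood at 7.93, 9.9 and 6.32 CPM at 0.03 nM, against 3.35, 4.22 and 3.16 CPM with vehicle (2.23-fold, edgeR adjusted p = 0.000258). IGF1R, the IGF-1 receptor, stood at 28.8, 49.2 and 30 CPM at 0.03 nM, against 15.9, 24.1 and 20 CPM with vehicle (1.79-fold, edgeR adjusted p = 0.00717). ERBB2, a receptor of the EGF family, fell to 295, 261 and 264 CPM at 0.03 nM, against 342, 312 and 356 CPM with vehicle. FGFR3, EGFR, HBEGF and IGFBP5 were the others called, and each lost its call without at least 2 of the 6 libraries. The genes called higher numbered 2 without 0.03 nM replicate 3 or vehicle replicate 2, and those called lower numbered 1 without 0.03 nM replicate 2, 0.03 nM replicate 4 or vehicle replicate 2.

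Of 23 tested glycosyltransferases and Golgi mannosidases, 3 were called higher (13.0%) and 4 lower, where 5.47% and 3.16% of all tested genes were. Beside ST6GALNAC1, GALNT7 and GCNT1, which build O-glycans, rose 1.47-fold and 1.41-fold. MAN1A2, which trims N-glycans as MAN1A1 does, fell to 90.2, 81.4 and 88.1 CPM at 0.03 nM, against 111, 107 and 121 CPM with vehicle. FUT8 and ST3GAL1 lost their calls without at least 1 library, and 2 were called lower without vehicle replicate 4. Of 16 glucocorticoid-responsive genes 3 were called higher (18.8%), ZBTB16 (1.92-fold), FKBP5 and PER1 (1.49-fold). With the replicate block 7 were higher and 2 lower. NR3C1, the glucocorticoid receptor, did not exceed 1.04 CPM in any library of either group. Of 25 p53 targets 2 were called higher (8.0%) and 2 lower. TP53INP1 stood at 404, 296 and 372 CPM at 0.03 nM, against 488, 425 and 513 CPM with vehicle. It alone of these was called without each library in turn. Of 25 interferon response genes 1 was called higher (4.0%) and 1 lower. Of 20 immediate early genes 1 was called higher (5.0%) and 2 lower. Both shares called higher are near the 5.47% of all tested genes. Of those called in these lists, FOSL2 alone was called without each library in turn. None of the 13 genes of mitochondrial DNA was called by edgeR's test.

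By gene class, 900 and 532 of 13340 protein-coding genes were called higher and lower (10.7% in all). For long noncoding or antisense genes these were 61 and 33 of 3137 (3.0%), and for pseudogenes 29 and 8 of 1292 (2.86%). The classes were not matched for read level, on which the power of the test depends.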
